A study of Mus musculus with 9 samples.

Results

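The miR-23/27/24 clusters of the mouse are a pair of small gene clusters that each encode a miR-23, a miR-27 and a miR-24 hairpin. Their 7 mature miRNAs were selected by name: mmu-miR-23a-3p, mmu-miR-27a-3p and mmu-miR-24-2-5p belong to the miR-23a/27a/24-2 cluster, and mmu-miR-23b-3p, mmu-miR-27b-3p and mmu-miR-24-1-5p to the miR-23b/27b/24-1 cluster. The last member, mmu-miR-24-3p, is the same molecule whichever cluster it is cut from. All 7 were found among the 986 rows of mature miRNAs that remained after repeated entries had been merged.

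The measurements are small RNA sequencing of mouse embryos at embryonic day 9.5 with different alleles of miR-17~92, a separate oncogenic miRNA cluster whose 4 seed families are miR-92, miR-19, miR-18 and miR-17. The 7 mutant genotypes were miR-17 deleted, miR-18 deleted, miR-19 deleted, miR-92 deleted, miR-17,18 deleted, miR-17,18,92 deleted and miR-17~92 Knockout, and the reference was wild type with the full cluster. Each genotype had 1 library, all labelled female, made from the rest of an embryo after dissection of its heart and tail bud. The strain, whether alleles were homozygous and how many embryos went into a library are not given in the sources used here.

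Wild type held 7070844 reads on mature miRNAs and the mutants between 6564471 (miR-92 deleted) and 18481380 (miR-18 deleted). Levels are in nRPM, the deposited values multiplied by 1 factor so that the totals of the 8 libraries average that of RPM values. In these units 1 read was worth between 0.0624 nRPM (miR-18 deleted) and 0.157 nRPM (wild type). Markers of neural tissue (miR-9-5p, miR-124-3p), muscle (miR-1a-3p, miR-133a-3p, miR-206-3p) and endothelium (both miR-126 arms) had reads in all libraries. Of the 2 blood markers, miR-223-3p had 0 reads in miR-17~92 Knockout and miR-142-3p had reads in all libraries. All 3 heart miRNAs also had reads in every library, although the heart had been removed. Their summed level was 52.2 nRPM in the lowest mutant (miR-17 deleted), 102 nRPM in the median mutant and 256.4 nRPM in the highest (miR-17,18 deleted), against 41.2 nRPM in wild type. With 1 library per genotype a ratio between libraries has no replicate check, and the 95% intervals given with ratios and shares cover counting error only. The reads carried no molecular identifiers, so copies of 1 molecule may count as separate reads and these intervals may be too narrow. In RNA of the rest of an embryo, with many tissues together, fewer cells of a type and less RNA per cell cannot be told apart.

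A miRNA guides the silencing complex to messenger RNAs that pair with its seed, here bases 2 to 8 counted from the 5′ end, and represses them. The miR-23/27/24 clusters arose by duplication and are conserved among vertebrates. miR-23 and miR-27 are known from endothelial cells, where they promote vessel sprouting by repressing inhibitors such as Sprouty2 and Sema6A. miR-27 also represses Pax3 in myogenic progenitors of the mouse embryo, and miR-24 represses the pro-apoptotic gene Bim in heart muscle cells. For each hairpin one arm, here the 3p arm, is the usual guide strand and the 5p arm is the rarer partner.

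The mature sequences show which members share a seed and which base tells paralogs apart. They come from RefSeq (GRCm38.p6), where 6 of the 7 members matched an entry, with the seed in capitals:

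miR-23a-3p: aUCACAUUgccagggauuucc

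miR-27a-3p: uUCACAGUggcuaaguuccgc

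miR-27b-3p: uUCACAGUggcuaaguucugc

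miR-24-2-5p: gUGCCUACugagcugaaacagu

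miR-24-1-5p: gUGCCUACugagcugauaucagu

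miR-24-3p: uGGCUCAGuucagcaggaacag

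miR-27a-3p and miR-27b-3p shared a seed and differed at 1 of 21 bases, C19U counted from the 5′ end of miR-27a-3p. The 5p arms of miR-24 also shared a seed. They had the first 16 and the last 4 bases in common and differed in between, with lengths of 22 and 23 bases. Among mature mouse miRNAs of RefSeq, the miR-23a and miR-27 seeds were found in no other entry than those shown, apart from any member without an entry. The miR-24-3p seed also stood in miR-5124b, miR-6369, miR-6410 and miR-6413, which have no row among the deposited values. miR-128-3p, whose sequence shares a run of 8 bases with miR-27a-3p at a shifted position, ranged from 636 to 1501 nRPM in the mutants and had 1154 nRPM in wild type.

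Both miR-24 hairpins contain the miR-24-3p sequence, capitalised here, which is why its reads cannot be assigned to either cluster (RNA sequence 5′ to 3′, plus strand, GRCm38.p6):

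Mir24-2 (chr8:84208815-84208921): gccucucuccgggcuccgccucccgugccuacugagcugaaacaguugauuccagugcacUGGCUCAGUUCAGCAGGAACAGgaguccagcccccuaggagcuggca

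Mir24-1 (chr13:63301208-63301275): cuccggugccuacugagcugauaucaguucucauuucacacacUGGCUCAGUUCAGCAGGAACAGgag

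In the GENCODE annotation of GRCm38 the miR-23a/27a/24-2 cluster spans 404 bases of chromosome 8 (84208518 to 84208921, plus strand), with Mir23a at 84208518 to 84208592 and Mir27a at 84208672 to 84208758. Mir23a and Mir27a overlap no other annotated gene, and the last 2 bases of Mir24-2 overlap an exon of the long non-coding RNA gene Gm26532. The miR-23b/27b/24-1 cluster spans 792 bases of chromosome 13 (63300484 to 63301275, plus strand), with Mir23b at 63300484 to 63300557 and Mir27b at 63300712 to 63300784. It lies on the sense strand of 2010111I01Rik, where Mir23b is intronic, Mir27b falls in an exon of 1 transcript and Mir24-1 in exons of 4 transcripts, and it is antisense to introns of Fancc.

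On the opposite strand of each miR-24 hairpin the annotation holds a miR-3074 hairpin. miR-3074-2-3p had exactly the reads of miR-24-2-5p in 8 of 8 libraries, and miR-3074-5p differed from miR-24-3p by at most 34 reads or 0.309%. miR-3074-1-3p had between 0.771 and 1.64 times the reads of miR-24-1-5p. The sources used here do not give the strand setting of the authors' counting, so reads of the opposite strands cannot be told apart, and the miR-24 values below may hold both. miR-24-3p had 2 entries whose totals differed by 0.136% and was counted once.

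**Figure D1:**
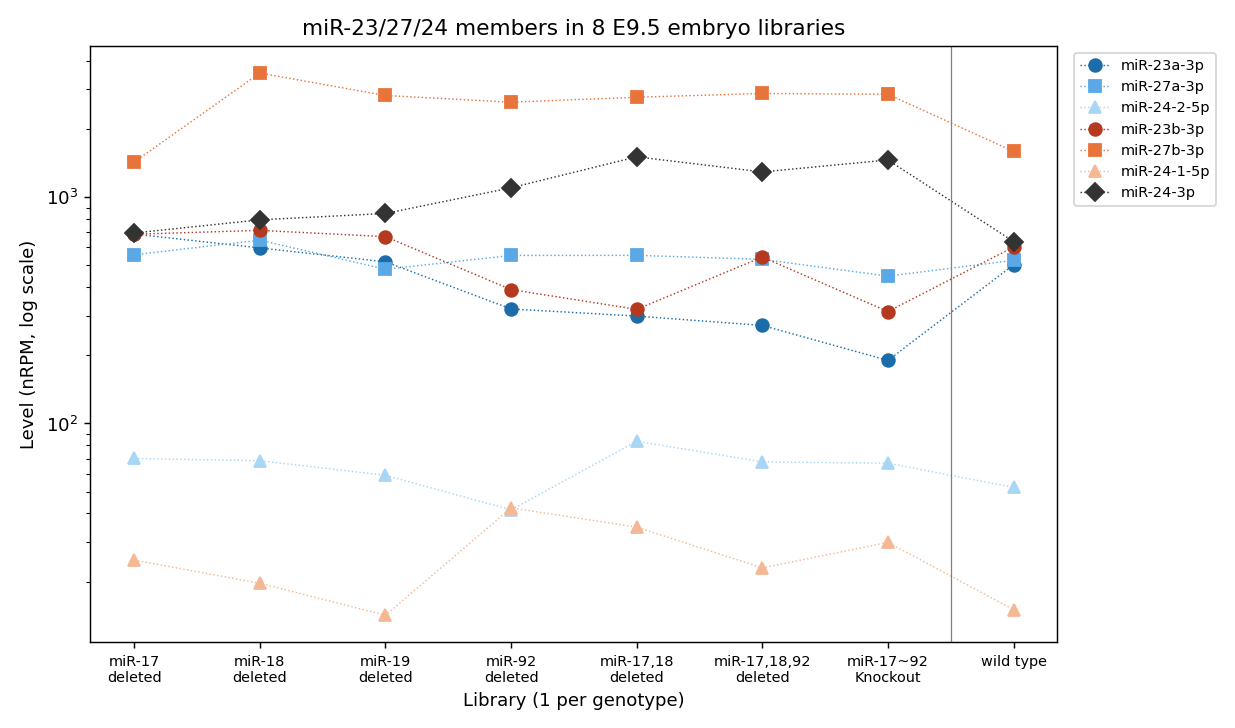
Level in nRPM (log axis) of the 7 miRNAs in each library, 7 mutants first and wild type at the right, 1 point per library with no error bar because each genotype has 1 library. miR-27b-3p is the highest member in each library and the 5p arms of miR-24 the lowest, with miR-24-3p, miR-23b-3p, miR-23a-3p and miR-27a-3p between 190 and 1509 nRPM.

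Within the miR-23a/27a/24-2 cluster, the guide strands differed in how far they varied across genotypes. miR-23a-3p had 688 nRPM in miR-17 deleted, 597 in miR-18 deleted, 518 in miR-19 deleted, 321 in miR-92 deleted, 298 in miR-17,18 deleted, 271 in miR-17,18,92 deleted and 190.0 in miR-17~92 Knockout, against 503 nRPM in wild type. It was thus highest in miR-17 deleted and lowest in miR-17~92 Knockout, and 3 mutants lay above wild type and 4 below. The ratio of miR-17~92 Knockout to wild type was 0.378 (95% interval 0.357 to 0.401), on 1810 and 3209 reads. The order of the 8 libraries held beyond counting error except between miR-19 deleted and wild type.

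miR-27a-3p, encoded beside miR-23a, was the steadiest member. It had 557 nRPM in miR-17 deleted, 646 in miR-18 deleted, 480.5 in miR-19 deleted, 553 in miR-92 deleted, 554 in miR-17,18 deleted, 531 in miR-17,18,92 deleted and 448 in miR-17~92 Knockout, against 526 nRPM in wild type. Its ratios to wild type ran from 0.851 to 1.23, and 3 of 7 neighbours in the order of libraries were within counting error of each other. The highest library stood only 1.44 times above the lowest. Among the 319 miRNAs outside miR-17~92 that averaged 100 nRPM or more, which include 5 of the members and not the 5p arms of miR-24, 4.39% had a smaller span, whereas the 3.62-fold span of miR-23a-3p was larger than that of 79.94% of them.

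miR-24-2-5p, the partner arm specific to this cluster, was low. It had 70.0 nRPM in miR-17 deleted, 68.4 in miR-18 deleted, 59.0 in miR-19 deleted, 41.5 in miR-92 deleted, 83.5 in miR-17,18 deleted, 67.6 in miR-17,18,92 deleted and 66.8 in miR-17~92 Knockout, against 52.2 nRPM in wild type. Here 6 mutants lay above wild type and miR-92 deleted below it. These levels rest on 290 to 1097 reads, and 4 of 7 neighbours in the order were within counting error.

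In the miR-23b/27b/24-1 cluster miR-23b-3p showed an order much like that of its paralog. It had 686 nRPM in miR-17 deleted, 714 in miR-18 deleted, 669.6 in miR-19 deleted, 391 in miR-92 deleted, 319 in miR-17,18 deleted, 544 in miR-17,18,92 deleted and 312 in miR-17~92 Knockout, against 602 nRPM in wild type. miR-17~92 Knockout and miR-17,18 deleted were lowest and did not differ beyond counting error. The lowest ratio to wild type was 0.519 (95% interval 0.494 to 0.544), in miR-17~92 Knockout, so that no mutant passed 2-fold. Scaled by totals outside miR-17~92 that ratio was 0.436.

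miR-27b-3p was the most abundant member. It had 1432 nRPM in miR-17 deleted, 3540 in miR-18 deleted, 2817 in miR-19 deleted, 2631 in miR-92 deleted, 2767 in miR-17,18 deleted, 2875 in miR-17,18,92 deleted and 2852 in miR-17~92 Knockout, against 1594 nRPM in wild type. Wild type and miR-17 deleted formed the low end, and the other 6 mutants lay between 1.65 and 2.22 times wild type. The highest ratio was that of miR-18 deleted, at 2.22 (95% interval 2.17 to 2.27). Its partner arm miR-27b-5p ran from 42.2 to 77.7 nRPM in the mutants against 42.3 nRPM in wild type, with ratios of 0.999 in miR-17 deleted and 1.25 to 1.84 in the other 6 mutants.

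miR-24-1-5p was the lowest member. It had 24.9 nRPM in miR-17 deleted, 19.7 in miR-18 deleted, 14.2 in miR-19 deleted, 42.4 in miR-92 deleted, 34.8 in miR-17,18 deleted, 23 in miR-17,18,92 deleted and 29.8 in miR-17~92 Knockout, against 15.0 nRPM in wild type. The highest ratio, 2.82 (95% interval 2.23 to 3.58) in miR-92 deleted, fell in the same library in which miR-24-2-5p was lowest. Wild type rested on 96 reads, and the lowest mutant, miR-19 deleted, did not differ from it beyond counting error.

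miR-24-3p, the guide strand shared by both clusters, was lowest in wild type. It had 695 nRPM in miR-17 deleted, 795 in miR-18 deleted, 848 in miR-19 deleted, 1101 in miR-92 deleted, 1509 in miR-17,18 deleted, 1294 in miR-17,18,92 deleted and 1461 in miR-17~92 Knockout, against 637 nRPM in wild type. The ratio to wild type was 2.37 (95% interval 2.29 to 2.45) in miR-17,18 deleted, 2.29 in miR-17~92 Knockout and 2.03 in miR-17,18,92 deleted, and 1.09 in miR-17 deleted, the closest mutant. Scaled by totals outside miR-17~92, the ratio of miR-17~92 Knockout was 1.93, short of 2-fold. Every pair of neighbours in the order was separated beyond counting error. Of the same 319 miRNAs, 13.8% were higher in 7 of 7 mutants, and 25.1% were higher in 6 or 7, as were miR-27b-3p and the 5p arms of miR-24.

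In the deposited scaling, some tissue markers had the same extremes as miR-24-3p and others did not. Under plain read totals and under TMM factors, miR-24-3p was instead highest in miR-17~92 Knockout. In that library miR-208a-3p had 32.4 nRPM and miR-499-5p 22.8 nRPM in the deposited scaling. Of the 3 heart miRNAs, miR-208a-3p had 176 nRPM in miR-17,18 deleted, its highest library, against 6.27 nRPM in wild type, its lowest. miR-499-5p had 60.3 nRPM in miR-17,18 deleted, also its highest library, against 10.3 nRPM in wild type, its lowest. miR-208b-3p did not share these extremes, with 20.5 nRPM in miR-17,18 deleted against 24.6 nRPM in wild type, and the summed heart level given above was set mainly by miR-208a-3p in miR-17,18 deleted. The summed muscle miRNAs were also highest in miR-17,18 deleted, at 5854 nRPM against 3020 nRPM in wild type, but lowest in miR-17 deleted, at 2163 nRPM. The summed miR-126 arms had 17558 nRPM in miR-17,18 deleted and 7371 nRPM in miR-17,18,92 deleted, the lowest library, against 10720 nRPM in wild type. The high sum in miR-17,18 deleted came from miR-126-3p, as miR-126-5p had 2657 nRPM there against 2673 nRPM in wild type. The part of these tissues in the level of miR-24-3p was not tested.

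**Figure D2:**
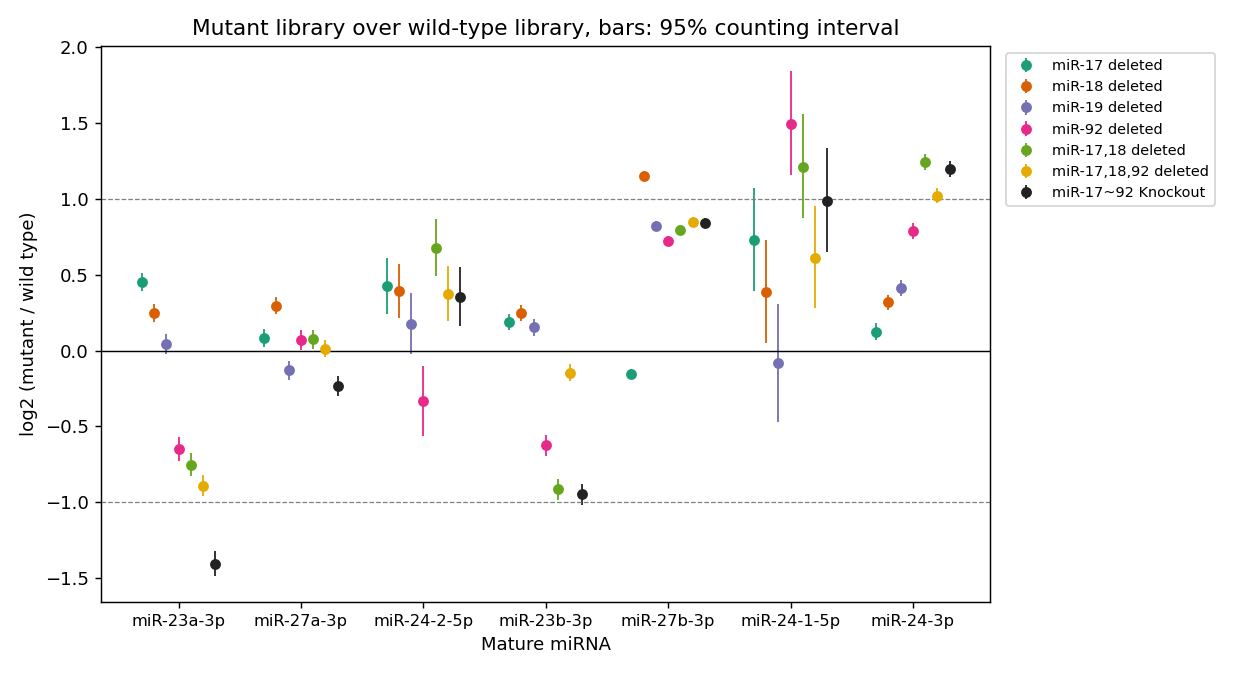
Log2 ratio of each mutant to wild type for the 7 miRNAs, with 95% counting intervals as bars and dashed lines at a 2-fold difference. miR-24-3p lies above 0 in all 7 mutants and miR-23a-3p lies lowest in miR-17~92 Knockout.

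The members passed 2-fold about as often as miRNAs in general. Of 49 ratios of a member in a mutant to wild type, 7 passed 2-fold (14.3%), against 14.5% of the 2233 ratios of the 319 miRNAs. Over the 5 members that averaged 100 nRPM or more, 5 of 35 ratios passed (14.3%). Of these 7, 6 were higher in the mutant (background 6.9%) and 1 was lower (background 7.61%). In miR-17 deleted and in miR-19 deleted 0 members passed, where 2.82% and 3.45% of the 319 were 2-fold higher and 4.08% and 6.27% were 2-fold lower. In miR-18 deleted miR-27b-3p was 2-fold higher (background 7.52% higher and 7.21% lower), and in miR-92 deleted miR-24-1-5p was (background 6.9% higher and 7.21% lower). In miR-17,18 deleted miR-24-1-5p and miR-24-3p were 2-fold higher (background 11.6% higher and 12.5% lower), and in miR-17,18,92 deleted miR-24-3p was (background 7.52% higher and 7.84% lower). In miR-17~92 Knockout miR-24-3p was 2-fold higher and miR-23a-3p 2-fold lower, where 8.46% of the 319 were higher and 8.15% lower. Over all 8 libraries 6 of 7 members spanned 2-fold or more, or 4 of the 5 that averaged 100 nRPM or more, as did 69.0% of the 319. miR-17~92 Knockout was the lowest of the 8 libraries for 14.4% of the 319, as it was for miR-23a-3p, miR-23b-3p and miR-27a-3p.

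The median log2 ratio to wild type over the 5 members that averaged 100 nRPM or more was above that of the 319 miRNAs in 5 of 7 mutants. It was 0.13 in miR-17 deleted (0.03 for the 319), 0.30 in miR-18 deleted (-0.01), 0.15 in miR-19 deleted (0.05), 0.07 in miR-92 deleted (0.01) and 0.07 in miR-17,18 deleted (-0.03). It was not above it in miR-17,18,92 deleted, at 0.01 (0.02 for the 319), nor in miR-17~92 Knockout, at -0.23 (0.10). With the 5p arms of miR-24 included, the medians over all 7 members rose most in the last 3 of these mutants. They were 0.68 in miR-17,18 deleted, 0.37 in miR-17,18,92 deleted and 0.36 in miR-17~92 Knockout. They were slightly higher in miR-17 deleted (0.19) and miR-18 deleted (0.32), and stayed at 0.15 in miR-19 deleted and 0.07 in miR-92 deleted. All 7 mutants share the 1 wild-type library, so these medians are not independent of each other.

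The additive model asked whether a member differed between libraries with and without each miR-17~92 family, using all 8 libraries. Among the 28 estimates, 7 members by 4 families, 0 passed an adjusted p of 0.05 in limma with Benjamini-Hochberg adjustment over 551 miRNAs. At an unadjusted p under 0.05 there was 1, and edgeR's quasi-likelihood test and DESeq2's Wald test also called 0 of 28, with 0 and 2 at an unadjusted p under 0.05. As background, limma called 0.726% of all miRNAs for loss of miR-17 and also for loss of miR-19, and 0.363% each for loss of miR-18 and of miR-92. All of these belong to miR-17~92 itself, since 0 of the 538 miRNAs outside it, the members included, were called (0.0%) for each family. At an unadjusted p under 0.05, these 538 gave 11 (2.04%) for the miR-17 family, 19 (3.53%) for miR-18, 7 (1.3%) for miR-92 and 17 (3.16%) for the miR-19 family.

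The estimates themselves lay between -0.79 and 0.78 on the log2 scale, with standard errors of 0.27 to 0.47. The highest was miR-27b-3p with miR-18 deletion, at 0.78 ± 0.31 (SE; limma adjusted p = 0.988), and it was the 1 under an unadjusted 0.05. The lowest was miR-23a-3p with miR-92 deletion, at -0.79 ± 0.34 (SE; limma adjusted p = 0.990). The model left 3 residual degrees of freedom.

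The clusters were compared within each library, where the scaling between libraries drops out. Levels of different miRNAs in such libraries also carry the sequence preference of adapter ligation, so a ratio between paralogs compares reads. miR-23a-3p was below miR-23b-3p in 7 of 8 libraries. The log2 ratio averaged -0.37 ± 0.33 (SD, n = 8), a ratio of 0.772, with 0.499 in miR-17,18,92 deleted and 1.002 in miR-17 deleted at the ends (two-sided exact sign-flip permutation test, p = 0.0156, Benjamini-Hochberg adjusted over 3 ratios 0.0156).

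The difference was wider for miR-27, whose paralogs share their seed and all bases but 1. How reads mapping to both were treated is not known, so these rows may not be wholly separate measurements. miR-27a-3p was below miR-27b-3p in 8 of 8 libraries, with a log2 ratio of -2.21 ± 0.47 (SD, n = 8), so that miR-27b-3p had 4.61 times the reads (exact sign-flip permutation p = 0.00781, the smallest 8 libraries allow, adjusted p = 0.0156). The ratio was lowest in miR-17~92 Knockout, at 0.157, and highest in miR-17 deleted, at 0.389, with 0.330 in wild type.

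The 5p arms of miR-24 stood the other way round. miR-24-2-5p exceeded miR-24-1-5p in 7 of 8 libraries, with a log2 ratio of 1.39 ± 0.64 (SD, n = 8) or 2.61-fold (exact sign-flip permutation p = 0.0156, adjusted p = 0.0156). The exception was miR-92 deleted, at 0.980, and the highest ratio was 4.16 in miR-19 deleted, with 3.47 in wild type. Of the reads of both 5p arms, miR-24-2-5p held 49.5% (95% exact binomial interval 45.4% to 53.6%) in miR-92 deleted, 80.6% in miR-19 deleted and 77.6% in wild type. As miR-24-2-5p and miR-3074-2-3p had the same reads, these ratios may hold reads of both strands. On the other side of the ratio, miR-3074-1-3p had 221 reads in miR-19 deleted against 135 of miR-24-1-5p. In wild type it had 74 against 96. Which library had the highest ratio may therefore depend on how the strands were counted.

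**Figure D3:**
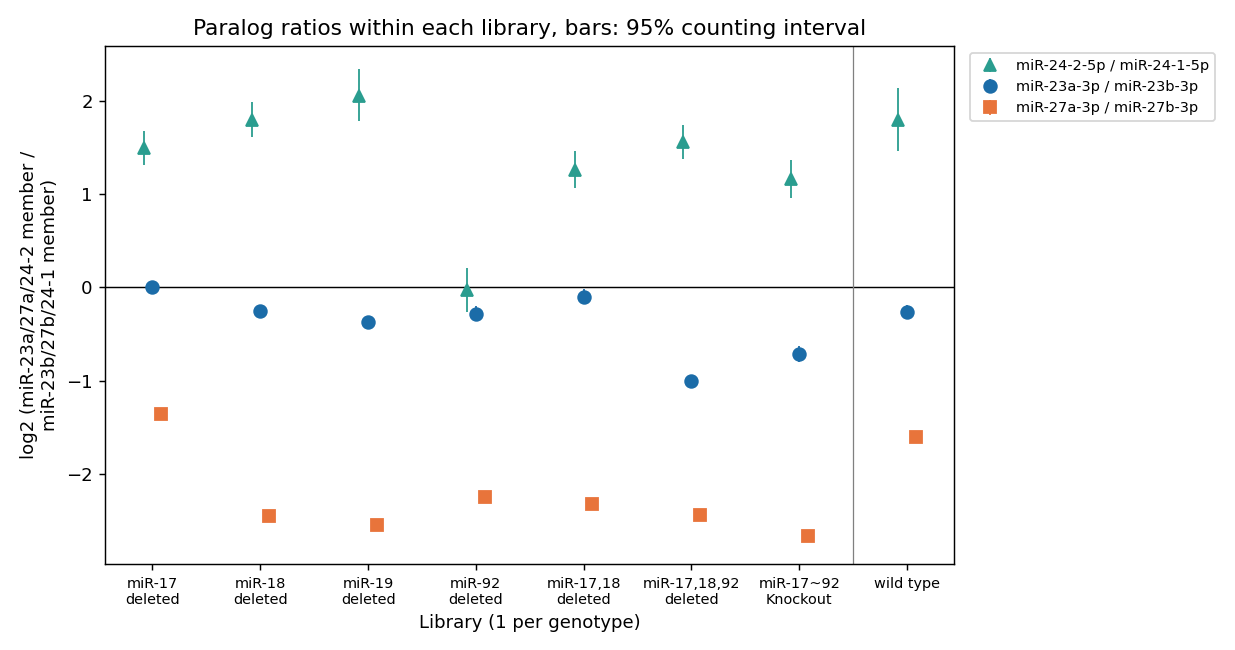
Log2 ratio of each miR-23a/27a/24-2 member to its miR-23b/27b/24-1 paralog in each library, with wild type at the right, 1 point per library, and a line at equal levels. miR-27a-3p to miR-27b-3p lies below 0 in 8 of 8 libraries, and miR-24-2-5p to miR-24-1-5p above 0 in 7 of 8.

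Summed over the members specific to each locus, the miR-23a/27a/24-2 cluster averaged 1024 ± 213 nRPM and the miR-23b/27b/24-1 cluster 3119 ± 693 nRPM (SD, n = 8). The miR-23a/27a/24-2 sum ran from 705 nRPM in miR-17~92 Knockout to 1314 nRPM in miR-17 deleted among the mutants, against 1081 nRPM in wild type. The miR-23b/27b/24-1 sum ran from 2143 nRPM in miR-17 deleted to 4273 nRPM in miR-18 deleted, against 2212 nRPM in wild type. The miR-23a/27a/24-2 cluster accordingly took 18.1% of the combined sum in miR-17~92 Knockout, 38.0% in miR-17 deleted and 32.8% in wild type. Most of the miR-23b/27b/24-1 sum was miR-27b-3p, with 89.3% in miR-17~92 Knockout, 66.8% in miR-17 deleted and 72.1% in wild type. These shares therefore depend largely on miR-27b-3p and do not measure the relative output of the loci. The paralog ratios given above did not all point the same way. All 7 members together made up at most 0.656% of a library's reads, and 0.355% in wild type.

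Hairpins of 1 cluster are known to be cut from a shared primary transcript. The ratios between their mature miRNAs nevertheless differed between libraries. miR-23a-3p to miR-27a-3p was 1.23 in miR-17 deleted, 0.924 in miR-18 deleted, 1.08 in miR-19 deleted, 0.580 in miR-92 deleted, 0.539 in miR-17,18 deleted, 0.511 in miR-17,18,92 deleted and 0.424 in miR-17~92 Knockout, against 0.955 in wild type. miR-23b-3p to miR-27b-3p was 0.479 in miR-17 deleted, 0.202 in miR-18 deleted, 0.238 in miR-19 deleted, 0.148 in miR-92 deleted, 0.115 in miR-17,18 deleted, 0.189 in miR-17,18,92 deleted and 0.110 in miR-17~92 Knockout, against 0.378 in wild type. In both clusters miR-23 was highest relative to miR-27 in miR-17 deleted and lowest in miR-17~92 Knockout, over spans of 2.91-fold and 4.37-fold. miR-17 deleted was also the lowest library of miR-27b-3p, at 1432 nRPM, and the miR-23 rows may not be separate measurements, as described below. No background span is given here for ratios of other miRNAs.

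**Figure D4:**
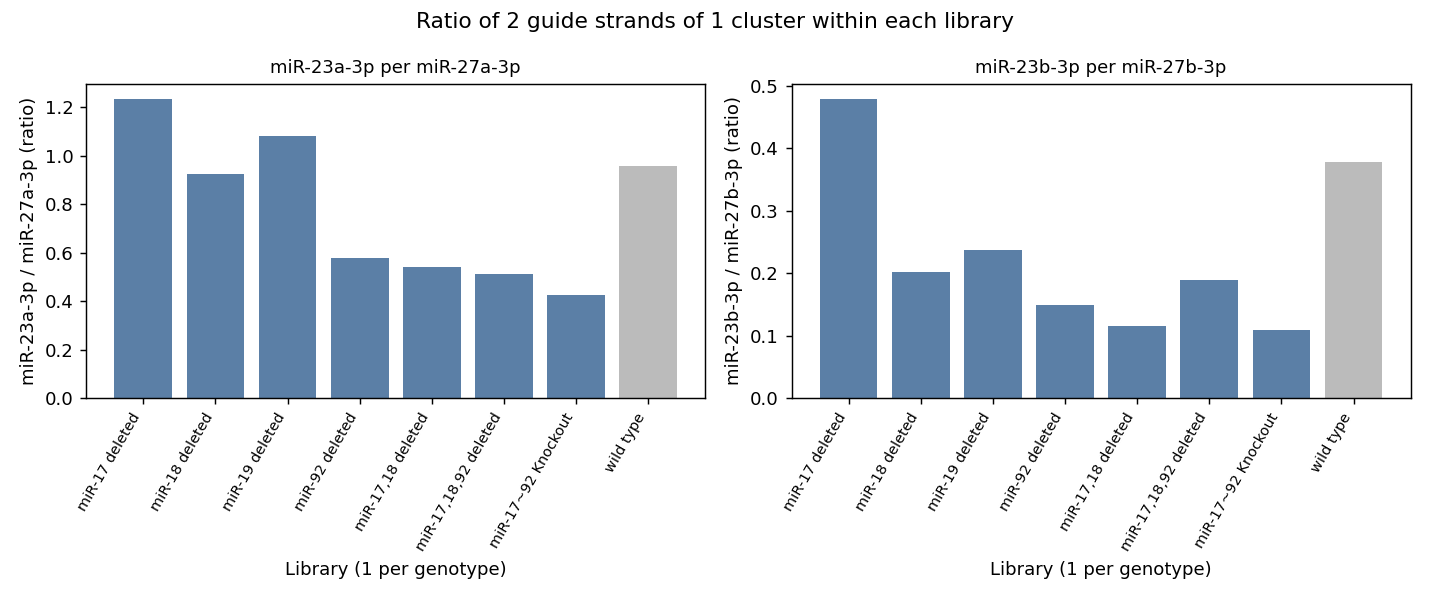
Ratio of miR-23a-3p to miR-27a-3p and of miR-23b-3p to miR-27b-3p in each library, as bars from 0 (mutants coloured, wild type grey at the right, 1 library each). Both ratios are highest in miR-17 deleted (1.23 and 0.479) and lowest in miR-17~92 Knockout (0.424 and 0.110).

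Across the 8 libraries the reads of the miR-23 paralogs varied together. As miR-23b-3p matched no RefSeq entry, its sequence was not compared with that of miR-23a-3p. How reads mapping to both were treated is not known, so the rows may not be separate measurements. Of 5 pairs examined on log2 levels, miR-23a-3p with miR-23b-3p had Pearson's r of 0.86 (exact permutation p = 0.00697, adjusted over 5 pairs 0.0348) and Spearman's rho of 0.90 (exact permutation p = 0.00456, adjusted 0.0228). Without miR-17 deleted and miR-17~92 Knockout, the libraries farthest from the median of miR-23a-3p, r was 0.77 (n = 6). The call was lost under plain read totals (r = 0.83, exact permutation, adjusted p = 0.0539). It was also lost without miR-17 deleted (r = 0.85), miR-18 deleted (0.84), miR-19 deleted (0.85), miR-17~92 Knockout (0.79) or wild type (0.86), with adjusted p of 0.134 to 0.157, while the other 3 omissions kept it.

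Pairs within a cluster had lower values. miR-23a-3p with miR-27a-3p had r of 0.54 (exact permutation p = 0.174, adjusted 0.434) and rho of 0.57, with r of 0.18 without the same 2 libraries, and miR-23b-3p with miR-27b-3p had r of -0.27 (exact permutation p = 0.502, adjusted 0.837). miR-27a-3p with miR-27b-3p had r of 0.08 (exact permutation p = 0.853, adjusted 0.954). miR-24-2-5p with miR-24-1-5p had r of -0.03 (exact permutation p = 0.954, adjusted 0.954), a value that rests on few libraries, being 0.84 without wild type and miR-92 deleted. The difference between these correlations was not tested.

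miR-24-3p and miR-23 split the libraries in opposite ways, although their orders were not simply reversed. The 4 libraries lowest in miR-23a-3p (miR-92 deleted, miR-17,18 deleted, miR-17,18,92 deleted and miR-17~92 Knockout) were the 4 highest in miR-24-3p. They were also the 4 lowest in miR-23b-3p, whose row may not be a separate measurement. Wild type was the lowest library of miR-24-3p, whereas for miR-23a-3p 3 mutants lay above it and 4 below. How many other miRNAs split the libraries in this way was not counted. miR-24-3p had 7.32 times the reads of both 5p arms in miR-17 deleted, 15.1 times in miR-17~92 Knockout and 9.48 times in wild type, so the guide and partner arms of miR-24 did not vary in step.

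The partner arms of miR-23 and miR-27 were rare. The median ratio of guide to partner reads over the libraries was 126 for miR-23a, 13.6 for miR-27a and 39.2 for miR-27b, and 372 for miR-23b over the 7 libraries in which miR-23b-5p had reads. miR-23a-5p had 1.73 to 5.79 nRPM and miR-23b-5p at most 2.73 nRPM, too few reads to follow across genotypes. miR-27a-5p had 26.5 to 49.8 nRPM in the mutants and 35.4 nRPM in wild type, and its guide was 10.95 to 21 times as high.

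The miRNAs with the most similar profiles were found from the root mean square difference between log2 profiles over the 8 libraries, each centred on its mean, among miRNAs averaging 100 nRPM or more. For miR-23a-3p the 3 nearest were miR-493-5p (0.20), its paralog miR-23b-3p (0.31) and miR-96-5p (0.33), with its cluster mate miR-27a-3p at 0.54 and miR-24-3p at 1.03. For miR-23b-3p they were miR-96-5p (0.18), miR-324-5p (0.20) and miR-487b-3p (0.20). For miR-27a-3p they were miR-219-2-3p (0.14), miR-30a-3p (0.15) and miR-409-5p (0.16), and for miR-27b-3p miR-10b-3p (0.20), miR-674-5p (0.23) and miR-34c-5p (0.26). For miR-24-3p the nearest was miR-3074-5p (0.0016), which had nearly the same reads as described above, followed by miR-298-5p (0.16) and miR-15a-5p (0.18). No other member of its own cluster was among the 3 nearest of any guide strand.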

How the data were processed

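The authors deposited 1 signal value per mature miRNA and library, in 1046 rows for 977 accessions. Per the submitters' processing notes, the build was mm9 and the tools were featureCounts (Subread 1.4.2), STAR 2.2.0 and SAMtools 0.1.19. Parameters, strand setting and treatment of reads mapping to several places are not given in the sources used here. Trizol was used for extraction, per the labels' protocols. Deposited signal values of a library were whole multiples of the worth of 1 read (100% within 0.001 reads), from which reads were recovered. Values were multiplied by 0.116 to give nRPM. Repeated rows of an accession were merged where their totals lay within 10%, keeping the higher (49 of 57 repeated accessions, 986 rows left).

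The model was limma 3.58.1 with trend on log2(nRPM + 1), an additive term for each of 4 deleted families over 8 libraries, for the 551 miRNAs with a mean of at least 10 nRPM, and a Benjamini-Hochberg adjusted threshold of 0.05. The pseudocount of 1 nRPM understates changes of low miRNAs. edgeR 4.0.16 and DESeq2 1.42.0 on the recovered reads, other scalings, pseudocounts and filters, and leaving out each library were alternatives. Nothing says that libraries are independent litters, so p-values measure only how single libraries scatter, which may be technical. Ratio intervals are exact conditional (Clopper-Pearson) intervals at 95%. The named miRNAs are the 7 members, their partner and miR-3074 arms, a seed neighbour, markers, and the 3 nearest profiles of each guide strand. Members and lists were chosen with earlier results of these data known. The library of undetermined reads entered no comparison. Positions are those of GENCODE on GRCm38, which is a later build than mm9.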

Additional observations from a re-analysis of the deposited data

Results flagged for a closer look

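A library of 3023436 undetermined reads, which the labels put in no genotype, held all 7 members within the range of the 8 genotype libraries. In it, 5 members stood above wild type, which is what drew attention to them: miR-27a-3p at 573 nRPM, miR-24-2-5p at 63.0 nRPM, miR-27b-3p at 2557 nRPM, miR-24-1-5p at 15.8 nRPM and miR-24-3p at 813 nRPM. miR-23a-3p and miR-23b-3p were below wild type, at 373 and 497 nRPM. The value of miR-24-1-5p rested on 45 reads, against 15.0 nRPM on 96 reads in wild type. No interval was computed for these differences.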

How the results depend on the processing

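In 20 alternative settings of the additive model no member was called. Of 690 alternatives over all results, 610 were classed as unchanged, 67 moved a value or count, 7 turned a direction and 6 lost a call. For the 294 that are member ratios to wild type, unchanged meant inside the counting interval of the main ratio. A turned direction was counted there only for ratios past 2-fold. With plain totals, miR-24-1-5p went from 1.98 to 2.32 in miR-17~92 Knockout and from 0.944 to 1.07 in miR-19 deleted, both classed as unchanged. Plain read totals shifted the median log2 ratio of all miRNAs to wild type by 0.18 to 0.37 in 5 mutants, and totals outside miR-17~92 shifted it by -0.25 in miR-17~92 Knockout. With plain totals 12 ratios of members passed 2-fold instead of 7, 11 of them higher, and with totals outside miR-17~92 there were 2 lower instead of 1. miR-24-3p was lowest in wild type under all 5 scalings, but its highest library changed to miR-17~92 Knockout under plain read totals and TMM factors. Among all miRNAs, the miR-18 term had 2 calls, 1 with a minimum mean of 100 nRPM and 0 with edgeR. Leaving out a library gave 0 to 5, with 0 without miR-18 deleted, miR-19 deleted or wild type, 1 without miR-17~92 Knockout and 5 without miR-92 deleted. The miR-19 term had 4 calls, and 2 with a minimum mean of 100 nRPM, where fewer miRNAs were tested. With each library left out, the miR-92 estimates of uncalled members ran from -0.76 to 0.31 for miR-23b-3p, -0.47 to 0.89 for miR-24-1-5p and -0.11 to 0.68 for miR-24-3p, turning direction without miR-92 deleted. The correlation of miR-23a-3p with miR-23b-3p was 0.83 with plain totals and 0.79 to 0.95 with a library left out. That of miR-27a-3p with miR-27b-3p ran from -0.40 (without miR-18 deleted) to 0.27. That of the miR-24 5p arms was 0.17 with plain totals and ran from -0.32 to 0.87 (without miR-92 deleted, adjusted p = 0.0293), with 0.01 without miR-18 deleted. The 3 paralog ratios kept direction and adjusted p under 0.05 throughout. The cause of these changes was not tested. No paired analysis of mutants against wild type was possible because each genotype has 1 library and the labels give no replicate numbers. Depth limits miR-24-1-5p most, with 96 reads in wild type.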
